A study of Mus musculus with 7 samples.

Results

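The genes described here are the metalloproteinases of the MMP, ADAM and ADAMTS families and their tissue inhibitors, the TIMPs, in osteolineage cells of mouse bone marrow. They were taken by name: every probe set with exactly 1 gene symbol in the platform annotation, that symbol being Mmp, Adam, Adamts or Timp followed by a number. Where a gene had several, the one with the greatest average signal on the 7 arrays was used. This gave 54 genes from 83 probe sets, out of 12393 genes measured in all. RefSeq names 80 protein-coding mouse genes in this way, and the other 26 were not analysed here, among them Mmp15, Mmp25, Adamts9, Adamts12 and all of Adamts2, Adamts3 and Adamts14.

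The study sorted bone marrow stromal cells by flow cytometry from double transgenic mice carrying OsxCre-mCherry and OcnCre-Topaz, aged 4 to 6 weeks, at 6 days after tamoxifen. The Ocn+ group (3 arrays, titled Topaz Osteocalcin) holds green cells marked through the osteocalcin promoter, and the Osx+ group (4 arrays, titled mCherry Osterix) holds red cells marked through the osterix promoter. All 7 arrays come from the same transgenic background and the same treatment, the promoter only marks the cells; double-coloured cells are not analysed here. The labels do not say whether the arrays came from separate animals. Each p-value therefore reflects variation among these samples only, and that variation may in part be technical in origin. Total RNA was amplified, labelled with biotin and measured on Affymetrix arrays, and the values are log2 signals after RMA normalization. In sorted bulk cells, fewer cells of a type and less RNA per cell cannot be told apart.

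MMPs are zinc endopeptidases that cut collagens, gelatin and other matrix proteins, most of them secreted as inactive precursors and some tethered to the membrane. ADAMs are membrane proteins, of which those with an intact zinc site shed ligands and receptors from the cell surface, while ADAMTS enzymes are secreted and cut proteoglycans, procollagens and a few other substrates. TIMPs bind the active site of these enzymes and block it. In bone, osteoblasts and osteocytes make collagenase and membrane-type MMPs, and osteoclasts make the gelatinase Mmp9.

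The arrays also differed in a way that cut across the groups. The Xist signal was 4.87 to 5.79 on 3 arrays (Ocn+ replicate 1 and Osx+ replicates 1 and 3) and 12.33 to 12.96 on the other 4, called low-Xist and high-Xist arrays below. Eif2s3y, a gene of the Y chromosome, was at 8.03 or more on 6 arrays and at 4.03 on Osx+ replicate 4, so both signals were present on 3 arrays. The Gapdh control probe sets at the 3′ end exceeded those at the 5′ end by 0.89 to 1.26 log2 units on the low-Xist arrays and by 0.59 to 0.64 on the high-Xist arrays. For the Actb control the excess was 0.47 to 0.77 on the low-Xist and 0.46 to 0.50 on the high-Xist arrays, which overlap. Of all 12393 genes, 34.3% had values that did not overlap between the low-Xist and the high-Xist arrays. For Mmp9, Mmp10, Mmp12, Adamts10, Timp2, Tspan15, Tspan14 and Acan the difference between Ocn+ and Osx+ is therefore also given within the high-Xist arrays (2 Ocn+, 2 Osx+) and within the low-Xist arrays (1 Ocn+, 2 Osx+).

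Marker lists of other cell types were compared between the groups, and no marker passed limma's adjusted threshold. The 8 measured osteoblast markers had a mean signal of 12.61 to 13.21 on Ocn+ arrays and 11.62 to 13.07 on Osx+ arrays, with 6 of 8 higher in Ocn+ cells. Of the 12 listed, Runx2, Spp1 and the osteocalcin genes Bglap and Bglap2 were not analysed here. Sp7, the osterix gene, averaged 12.65 in Ocn+ and 12.47 in Osx+ cells. The list thus checks the osteoblast lineage but not which label the cells carried. The mean of 10 neutrophil markers was 11.43 to 11.66 on Ocn+ arrays and 7.63 to 11.05 on Osx+ arrays, with 10 of 10 higher in Ocn+ cells. The mean of 7 osteoclast markers was 10.30 to 10.68 on Ocn+ arrays and 8.16 to 9.99 on Osx+ arrays (7 of 7 higher), and that of 10 endothelial markers 9.96 to 10.57 and 6.36 to 9.24 (10 of 10 higher). The mean of 10 macrophage markers was 9.30 to 10.65 on Ocn+ arrays and 10.81 to 12.09 on Osx+ arrays, with 8 of 10 lower in Ocn+ cells. The mean of 10 cartilage markers was 9.85 to 11.39 on Ocn+ arrays and 10.53 to 12.76 on Osx+ arrays, with 8 of 10 lower in Ocn+ cells. That of 7 mural markers was 10.55 to 11.12 and 10.29 to 11.37 (4 of 7 lower). Their part in the differences below was not tested, and values of a list are only set beside some genes.

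Of the 54 genes, 9 lie side by side on mouse chromosome 9, in a run of 10 adjacent protein-coding genes that are all MMPs: Mmp13, Mmp12, Mmp1b, Mmp3, Mmp1a, Mmp10, Mmp8, Mmp27 (not analysed here), Mmp20 and Mmp7. No promoter window was at hand for Mmp9, Mmp2 or Adamts10, among others. The windows from RefSeq (build GRCm38.p6, the 250 bases before the start) covered 30 of the 54 genes. They were searched on both strands for the AP-1 motif (TGACTCA or TGAGTCA, each the reverse complement of the other), the RUNX motif (TGTGGT, or ACCACA on the other strand) and, on the gene's strand, the TATA motif (TATAAA); no match overlaps another in the sequences shown. AP-1 is the factor of Fos and Jun proteins, and Runx2 is the factor of osteoblast commitment. The AP-1 letters were found in 6 of the 30 windows, all 6 from this run, against 4.46% of 32851 windows of the same length in the table, and each of the 6 also held the TATA letters, a pair found in 0.481% of all windows. The 130 bases before the start of these 6 genes are shown because their genes are neighbours that carry the same pair of motifs. Capitals mark the AP-1, RUNX and TATA letters.
Mmp13 (chr9:7272384-7272513, plus strand): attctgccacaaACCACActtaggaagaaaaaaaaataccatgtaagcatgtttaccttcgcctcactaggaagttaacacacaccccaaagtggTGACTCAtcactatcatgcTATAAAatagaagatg
Mmp1b (chr9:7388027-7388156, minus strand): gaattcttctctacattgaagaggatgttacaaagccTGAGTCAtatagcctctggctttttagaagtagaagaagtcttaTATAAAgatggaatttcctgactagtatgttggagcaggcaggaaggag
Mmp3 (chr9:7445692-7445821, plus strand): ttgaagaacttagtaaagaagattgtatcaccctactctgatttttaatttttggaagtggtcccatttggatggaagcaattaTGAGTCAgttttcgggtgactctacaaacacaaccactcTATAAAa
Mmp1a (chr9:7464011-7464140, plus strand): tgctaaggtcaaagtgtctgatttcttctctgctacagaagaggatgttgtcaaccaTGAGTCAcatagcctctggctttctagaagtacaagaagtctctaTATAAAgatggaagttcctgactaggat
Mmp10 (chr9:7502212-7502341, plus strand): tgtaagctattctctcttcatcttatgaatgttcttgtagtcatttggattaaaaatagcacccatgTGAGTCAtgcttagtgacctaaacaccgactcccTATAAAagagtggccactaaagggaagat
Mmp7 (chr9:7691960-7692089, plus strand): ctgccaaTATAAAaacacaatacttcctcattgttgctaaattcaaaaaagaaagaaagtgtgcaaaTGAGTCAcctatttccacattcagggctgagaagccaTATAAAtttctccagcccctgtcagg
Among these 6 sequences only that of Mmp13 holds the RUNX letters, 118 bases before the start. Over the whole 250 bases the RUNX letters were found in 7 of the 30 windows (Adam15, Adam1a, Adam21, Mmp13, Mmp14, Mmp1b and Mmp23), against 14% of all windows. A match is a description of the letters and says nothing of binding in these cells.

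Among these genes Mmp9 had the largest difference between the groups. In limma's test over all 12393 genes (Ocn+ minus Osx+, Benjamini-Hochberg adjustment, threshold 0.05), 0 of the 54 genes passed, as did 0% of all genes. At an unadjusted p under 0.05 there were 2 of 54, Mmp9 and Adamts10, both higher in Ocn+ cells, which is 3.7% against 5.31% of all genes (3.48% higher and 1.83% lower in Ocn+ cells). The share of the 54 is thus not above that of all genes. Full separation of the 3 Ocn+ from the 4 Osx+ arrays was seen for 2 genes, Mmp9 (higher in Ocn+) and Timp2 (lower in Ocn+), again 3.7%, against 6.9% of all genes (4.37% higher and 2.53% lower in Ocn+ cells).

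The median difference was -0.03 for the 54 genes and 0.02 for all genes. Of the 54 genes, 23 stood above 0 and 31 below, 42.6% above, against 52.7% of all genes. The quartiles of the 54 differences were -0.21 and 0.13. For 28 of the 54 the 95% interval of the difference lay within 1 log2 unit of 0, so a 2-fold difference in either direction lay outside it, while for the other 26 the 7 arrays do not settle whether a difference of that size is present. The brightness of a probe set depends on its probes, so the levels of different genes are not set against each other below. On every array 18 of the 54 gave a log2 signal under 6, and 17 gave one over 10. Without detection calls, a low signal cannot be told from background. Some of the 28 with a narrow interval, Mmp1a and Adam25 among them, had such low signals, so a narrow interval there does not show like levels.

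**Figure D1:**
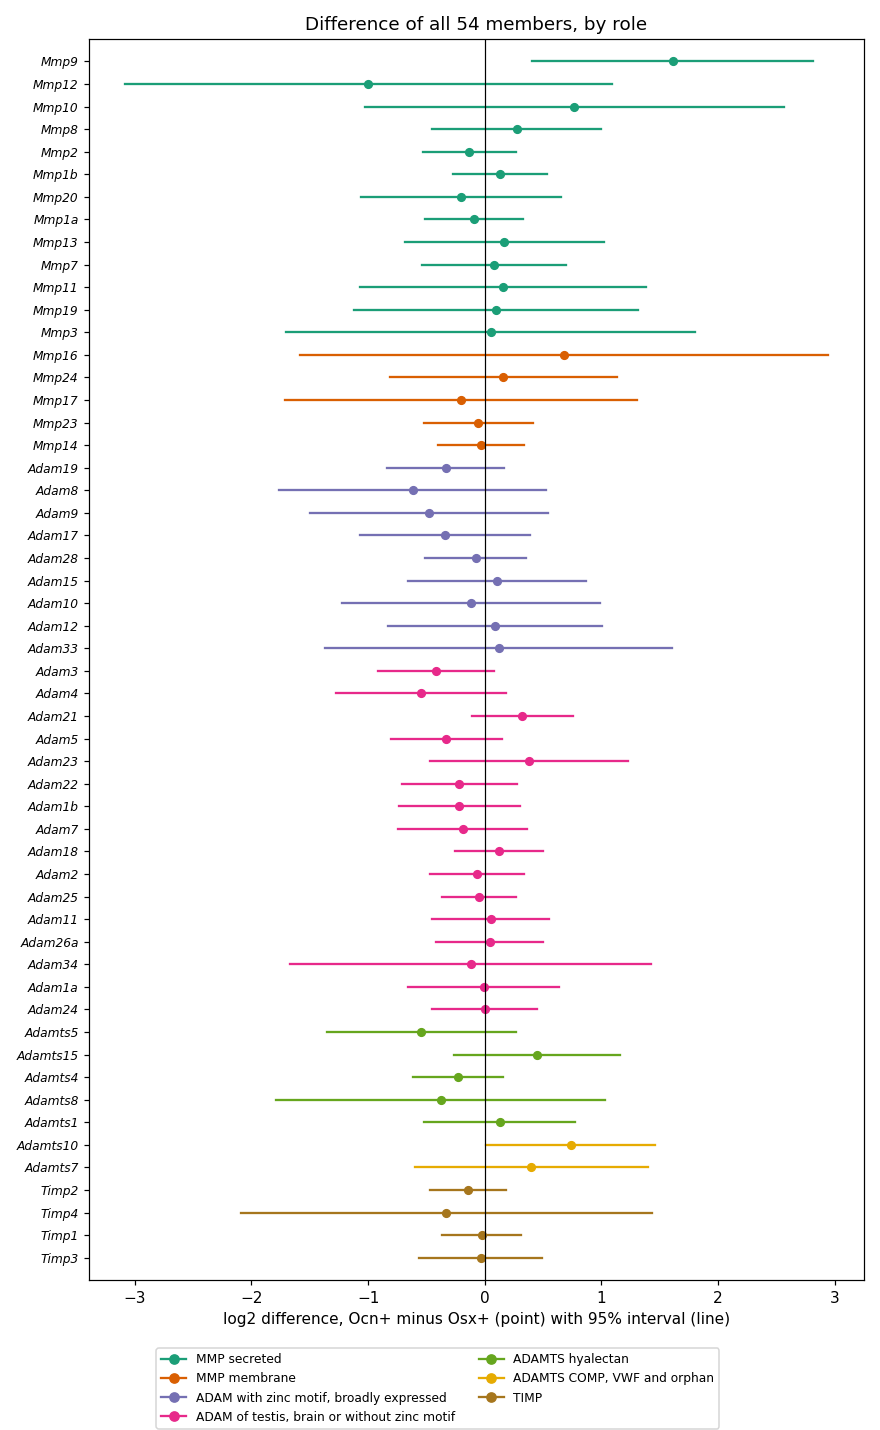
Log2 difference between Ocn+ and Osx+ arrays (horizontal axis, Ocn+ minus Osx+) for the 54 genes (vertical axis), coloured by role; points are limma's estimates and lines their 95% intervals without adjustment. The intervals of Mmp9 (0.41 to 2.81) and Adamts10 (0.01 to 1.46) lie above 0 and all others cross it.

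Among the 13 secreted MMPs, 9 differences were above 0 and 4 below, with a median of 0.10. Mmp9, gelatinase B, which cuts denatured collagen and is known from osteoclasts and neutrophils, had log2 signals of 13.94, 13.97 and 14.03 in Ocn+ replicates 1 to 3, against 12.60, 12.46, 13.41 and 11.01 in Osx+ replicates 1 to 4. The Ocn+ arrays lay close together, and the Osx+ arrays spread widely below them. Mmp9 averaged 13.98 ± 0.05 in the 3 Ocn+ samples and 12.37 ± 1.00 in the 4 Osx+ samples (mean ± SD), a 3.05-fold brighter signal in Ocn+ cells. The difference of 1.61 (SE 0.51) had an unadjusted p of 0.0156 and a limma adjusted p of 0.869, so it did not pass over all genes. It was 2.27 within the high-Xist arrays and 0.93 within the low-Xist arrays.

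The other Mmp9 probe set gave the same order of arrays within the Osx+ group. Its signals were 13.88, 13.48 and 13.68 in Ocn+ cells, against 11.82, 10.96, 12.77 and 9.73 in Osx+ cells, a difference of 2.36 (SE 0.66, limma adjusted p = 0.853 over 20380 probe sets). Both probe sets were lowest in Osx+ replicate 4 and, within that group, highest in replicate 3. The mean of the 7 osteoclast markers ran in the same order over the Osx+ arrays (9.99 in replicate 3, 9.13 in replicate 1, 8.74 in replicate 2 and 8.16 in replicate 4). Singly, Acp5 and Nfatc1 ran in that order, and Ctsk, Oscar, Ocstamp, Calcr and Itgb3 did not. The mean of the neutrophil markers was 8.31 in replicate 3, 9.57 in replicate 1, 11.05 in replicate 2 and 7.63 in replicate 4, another order. Mmp8, the collagenase stored in neutrophil granules, had signals of 5.85, 6.15 and 6.01 in Ocn+ cells, against 6.03, 5.98, 6.01 and 4.90 in Osx+ cells. Its groups overlapped, with a difference of 0.27 (95% interval -0.45 to 1.00). The part of these cells in the Mmp9 difference was not tested.

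**Figure D2:**
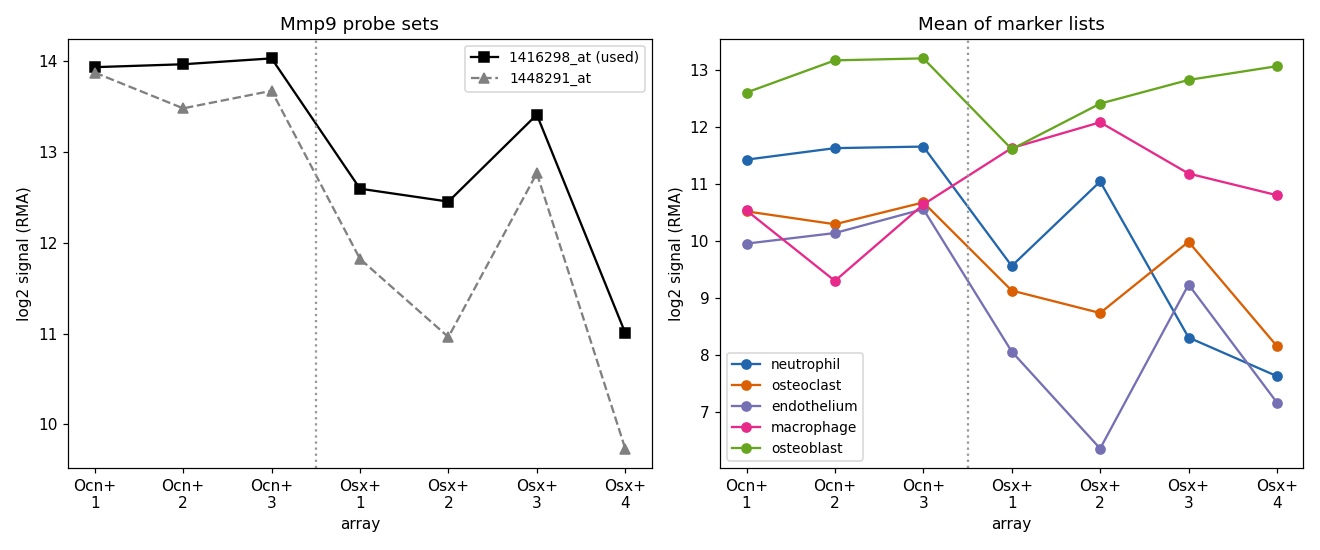
Log2 signal (vertical axes) of both Mmp9 probe sets (left) and the mean log2 signal of 5 marker lists (right) on the 3 Ocn+ and 4 Osx+ arrays (horizontal axis, dotted line between the groups). Mmp9 and the osteoclast list are lowest in Osx+ replicate 4 (11.01 and 8.16) and, within the Osx+ arrays, highest in replicate 3 (13.41 and 9.99).

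Mmp2, gelatinase A, which stromal cells make, had nearly the same signal in both groups. It stood at 13.85, 13.73 and 13.65 in Ocn+ cells, against 13.99, 13.65, 14.09 and 13.77 in Osx+ cells, a difference of -0.13 (95% interval -0.53 to 0.27). Mmp13, the collagenase of osteoblasts and hypertrophic cartilage and a known target of Runx2, stood at 12.28, 12.86 and 13.11 in Ocn+ cells, against 11.78, 12.54, 13.17 and 12.84 in Osx+ cells. The groups overlapped, and the difference was 0.17 (SE 0.36, 95% interval -0.69 to 1.02). Members given by array that are not the brightest or the lowest in p of their class, such as Mmp8 and Mmp13, were chosen after their values were seen.

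The neighbours of Mmp13 in the run on chromosome 9 varied between single arrays more than between groups. Mmp3, stromelysin 1, which activates other MMPs, was at 6.62, 7.29 and 6.43 in Ocn+ cells, against 5.37, 6.32, 8.76 and 6.47 in Osx+ cells. Mmp10, stromelysin 2, was at 8.33, 7.64 and 5.84 in Ocn+ cells, against 5.30, 7.11, 7.72 and 5.88 in Osx+ cells. Within the Osx+ group Mmp3, Mmp10 and Mmp13 were each lowest in replicate 1 and highest in replicate 3, and no group stood apart. Over Ocn+ replicates 1 to 3 these genes shared no order: Mmp13 rose, Mmp10 fell and Mmp3 was highest in replicate 2. The differences were 0.05 for Mmp3 (95% interval -1.70 to 1.80) and 0.77 for Mmp10 (-1.03 to 2.57). The Mmp10 difference was 0.25 within the high-Xist and 1.82 within the low-Xist arrays. Mmp12, the elastase of macrophages, was at 4.93, 4.72 and 6.41 in Ocn+ cells, against 5.01, 8.68, 6.08 and 5.64 in Osx+ cells. Its highest signal was in Osx+ replicate 2, the array where the mean of the macrophage markers was also highest (12.09). The other arrays did not share this order. Osx+ replicate 1, with the next highest mean (11.64), had Mmp12 at 5.01, and Ocn+ replicate 3, with Mmp12 at 6.41, had a mean of 10.65. The part of these cells was not tested. The Mmp12 difference was -1.0 (SE 0.89), and -0.23 without Osx+ replicate 2. It was -1.60 within the high-Xist and -0.62 within the low-Xist arrays. The 4 remaining genes of the run, Mmp1a, Mmp1b, Mmp7 and Mmp20, had signals under 6 on every array and differences between -0.20 and 0.13, and Mmp1a and Mmp1b are close copies whose probes may not tell them apart.

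Mmp11, stromelysin 3, and Mmp19, a widely made MMP, followed the Xist classes and not the groups. Mmp11 was at 9.50 to 9.68 on the low-Xist and 7.94 to 8.81 on the high-Xist arrays, and Mmp19 at 10.60 to 11.20 on the low-Xist and 11.37 to 12.49 on the high-Xist arrays. Their differences between Ocn+ and Osx+ were 0.16 and 0.10.

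Of the 5 membrane MMPs 0 had an unadjusted p under 0.05. Mmp14, the membrane-type collagenase that activates Mmp2 and is needed for bone remodelling, was at 12.21, 12.33 and 12.52 in Ocn+ cells, against 12.24, 12.51, 12.36 and 12.44 in Osx+ cells. Its difference was -0.03 with a 95% interval of -0.40 to 0.33. Mmp23, an MMP anchored by its amino end, was at 13.60, 13.26 and 13.29 in Ocn+ cells, against 13.59, 13.12, 13.71 and 13.34 in Osx+ cells, with a difference of -0.06 (SE 0.20). Mmp16, another membrane-type MMP, was at 9.87, 10.83 and 11.06 in Ocn+ cells, against 7.32, 9.96, 10.68 and 11.66 in Osx+ cells. The Osx+ arrays enclosed the Ocn+ arrays, and the difference of 0.68 (SE 0.96) was -0.18 without Osx+ replicate 1. Its other probe set differed by 0.07. Mmp17 and Mmp24 were higher on every low-Xist array than on any high-Xist array, with differences between the groups of -0.20 and 0.16.

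**Figure D3:**
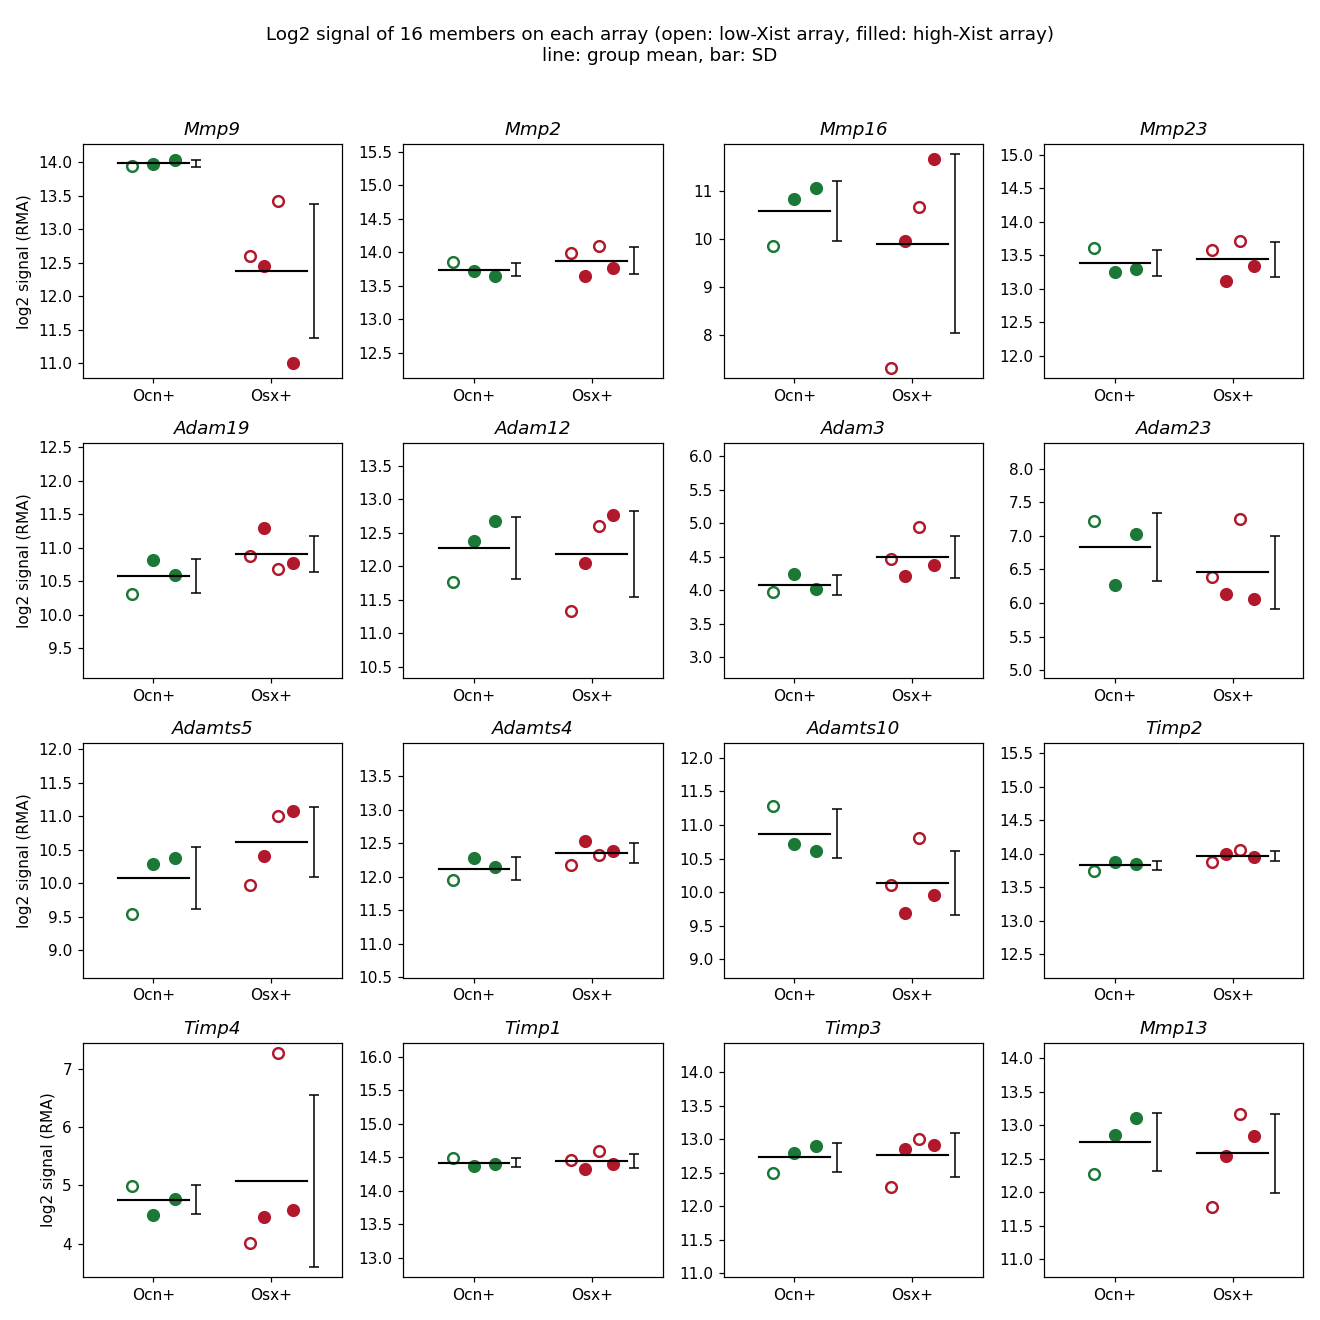
Log2 signal (vertical axes) of 16 genes on 3 Ocn+ arrays (left of each panel) and 4 Osx+ arrays (right), with open circles for low-Xist arrays, a line for the mean and a bar for the SD. The groups do not overlap for Mmp9 (13.94 to 14.03 in Ocn+ and 11.01 to 13.41 in Osx+) and, narrowly, for Timp2, and overlap in the other 14 panels.

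Of the 9 ADAMs of wide expression with a zinc site, 6 differences were below 0 and 3 above, with a median of -0.12, and 0 had an unadjusted p under 0.05. Adam19, a sheddase of neuregulins, was at 10.31, 10.82 and 10.60 in Ocn+ cells, against 10.89, 11.30, 10.69 and 10.77 in Osx+ cells. The groups overlapped by a narrow margin, and the difference was -0.33 (SE 0.21, limma adjusted p = 0.999). Adam12, made by mesenchymal cells, was at 11.77, 12.38 and 12.67 in Ocn+ cells, against 11.33, 12.05, 12.60 and 12.76 in Osx+ cells, with a difference of 0.09 (SE 0.39). Adam8, found on myeloid cells and osteoclasts, was at 9.40, 8.51 and 8.62 in Ocn+ cells, against 10.24, 10.07, 9.14 and 8.39 in Osx+ cells, with a difference of -0.62 (SE 0.49). Its 2 highest signals were in Osx+ replicates 1 and 2, the arrays with the 2 highest means of the macrophage markers (11.64 and 12.09). This order did not hold on the other arrays. Ocn+ replicate 1, with Adam8 at 9.40, had a mean of 10.54. Osx+ replicate 4, with the lowest Adam8 signal (8.39), had a mean of 10.81. The part of these cells was not tested.

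Adam10 and Adam17, the main sheddases of Notch receptors and of TNF, separated by Xist class, Adam10 clearly and Adam17 by a margin not seen at 2 decimals (10.97 on both sides). Adam10 was at 10.36, 11.46 and 11.75 in Ocn+ cells, against 10.50, 11.83, 10.98 and 11.93 in Osx+ cells, and its 3 low-Xist arrays (10.36 to 10.98) lay below the 4 high-Xist arrays (11.46 to 11.93). Adam17 was at 10.60, 10.97 and 11.43 in Ocn+ cells, against 10.94, 11.83, 10.97 and 11.63 in Osx+ cells. Between Ocn+ and Osx+ the differences were -0.12 for Adam10 and -0.34 for Adam17. With the Xist class in the model the Adam17 difference was -0.46 (SE 0.15, limma adjusted p = 0.243) and that of Adam9, a sheddase of wide expression, was -0.64 (SE 0.25, limma adjusted p = 0.289), so neither passed. Adam15, Adam28 and Adam33 had differences of 0.10, -0.08 and 0.12, and the Adam15 probe set used belongs to a class whose probes can match other transcripts.

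The 16 ADAMs known from testis or brain, or lacking a zinc site, had signals between 3.64 and 7.25, and 11 of their differences were below 0. Adam3, an ADAM of sperm, had the smallest unadjusted p of the class (0.0863), at 3.97, 4.25 and 4.02 in Ocn+ cells, against 4.46, 4.21, 4.94 and 4.38 in Osx+ cells. Adam23, a neuronal adhesion protein without a zinc site, was at 7.22, 6.27 and 7.03 in Ocn+ cells, against 6.39, 6.14, 7.25 and 6.06 in Osx+ cells. The groups overlapped for both, with differences of -0.42 and 0.38. The other 14 lay between -0.55 and 0.32, several of them close copies of each other (Adam1a and Adam1b, and Adam24, Adam25, Adam26a and Adam34), for which cross-hybridization cannot be told apart from signal of the gene.

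Among the ADAMTS enzymes, Adamts10 stood higher in Ocn+ cells without passing over all genes. Adamts10, which binds fibrillin microfibrils and is mutated in a human short-stature syndrome, was at 11.29, 10.71 and 10.61 in Ocn+ cells, against 10.10, 9.69, 10.81 and 9.95 in Osx+ cells. Of the 4 Osx+ arrays, replicate 3 lay within the Ocn+ range and the other 3 below it. The difference was 0.73 (SE 0.31, unadjusted p = 0.0472, limma adjusted p = 0.938), a 1.66-fold brighter signal in Ocn+ cells, and it was nearly the same within the high-Xist (0.84) and within the low-Xist arrays (0.83). Adamts7, an enzyme that cuts the cartilage protein COMP, differed by 0.40 (SE 0.42), and its low-Xist arrays (8.02 to 8.27) lay above its high-Xist arrays (6.61 to 7.59).

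The 5 measured enzymes of the group that cuts aggrecan and versican did not share a direction, with 2 differences above 0 and 3 below. Adamts4, an aggrecanase, was at 11.95, 12.28 and 12.14 in Ocn+ cells, against 12.17, 12.54, 12.32 and 12.38 in Osx+ cells, with a difference of -0.23 (95% interval -0.62 to 0.16). Adamts5, the main aggrecanase of mouse cartilage, was at 9.54, 10.29 and 10.38 in Ocn+ cells, against 9.98, 10.40, 11.00 and 11.08 in Osx+ cells, with a difference of -0.55 (SE 0.34, unadjusted p = 0.155). Both stood lower in Ocn+ cells in the mean, with overlapping groups, and the other Adamts5 probe set differed by -0.10. Adamts1, induced by hormones and inflammation, was at 12.21, 12.10 and 12.20 in Ocn+ cells, against 11.53, 11.75, 12.56 and 12.34 in Osx+ cells. Adamts15, a versican-cutting enzyme, was at 9.71, 9.30 and 9.13 in Ocn+ cells, against 8.40, 8.76, 9.58 and 8.97 in Osx+ cells. Their differences were 0.13 and 0.45, and for both the Osx+ arrays spread more widely than the Ocn+ arrays. Adamts8 was at 7.07 to 7.65 on the low-Xist and 5.66 to 6.01 on the high-Xist arrays, with a difference of -0.38 between Ocn+ and Osx+.

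All 4 TIMPs had small differences below 0, and 0 had an unadjusted p under 0.05. Timp1, a secreted inhibitor of most MMPs, was at 14.49, 14.36 and 14.40 in Ocn+ cells, against 14.46, 14.33, 14.59 and 14.40 in Osx+ cells, with a difference of -0.03 (95% interval -0.37 to 0.31). Timp2, which inhibits MMPs and also links Mmp14 to the precursor of Mmp2, was at 13.75, 13.88 and 13.85 in Ocn+ cells, against 13.88, 13.99, 14.05 and 13.96 in Osx+ cells. The groups did not overlap, but the highest Ocn+ and the lowest Osx+ array had the same signal to 2 decimals. The Timp2 difference was -0.14 (SE 0.14, unadjusted p = 0.336), -0.11 within the high-Xist and -0.22 within the low-Xist arrays. Timp3, the matrix-bound inhibitor that also blocks ADAMs and ADAMTS enzymes, was at 12.49, 12.80 and 12.90 in Ocn+ cells, against 12.29, 12.86, 13.01 and 12.92 in Osx+ cells, with a difference of -0.04 (95% interval -0.56 to 0.49). Timp4 was at 4.99, 4.49 and 4.77 in Ocn+ cells, against 4.01, 4.47, 7.27 and 4.58 in Osx+ cells. One array, Osx+ replicate 3, carried the difference of -0.33, which was 0.40 without it.

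The spread of these genes over the arrays followed the Xist classes more than the groups. For 14 of the 54 genes (25.9%) the low-Xist and high-Xist arrays did not overlap, 9 higher and 5 lower on the low-Xist arrays, against 34.3% of all genes (21.4% higher and 12.9% lower), so the share is not above that of all genes. The 9 were Adam15, Adamts7, Adamts8, Mmp2, Mmp11, Mmp17, Mmp23, Mmp24 and Timp1, and the 5 were Adam10, Adam17, Adam26a, Adam34 and Mmp19. Mmp17 was at 8.62 to 9.42 on the low-Xist and 7.04 to 7.64 on the high-Xist arrays. The 3′ to 5′ signal of the Gapdh control separated the same classes and that of the Actb control did not, and their part was not tested.

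**Figure D4:**
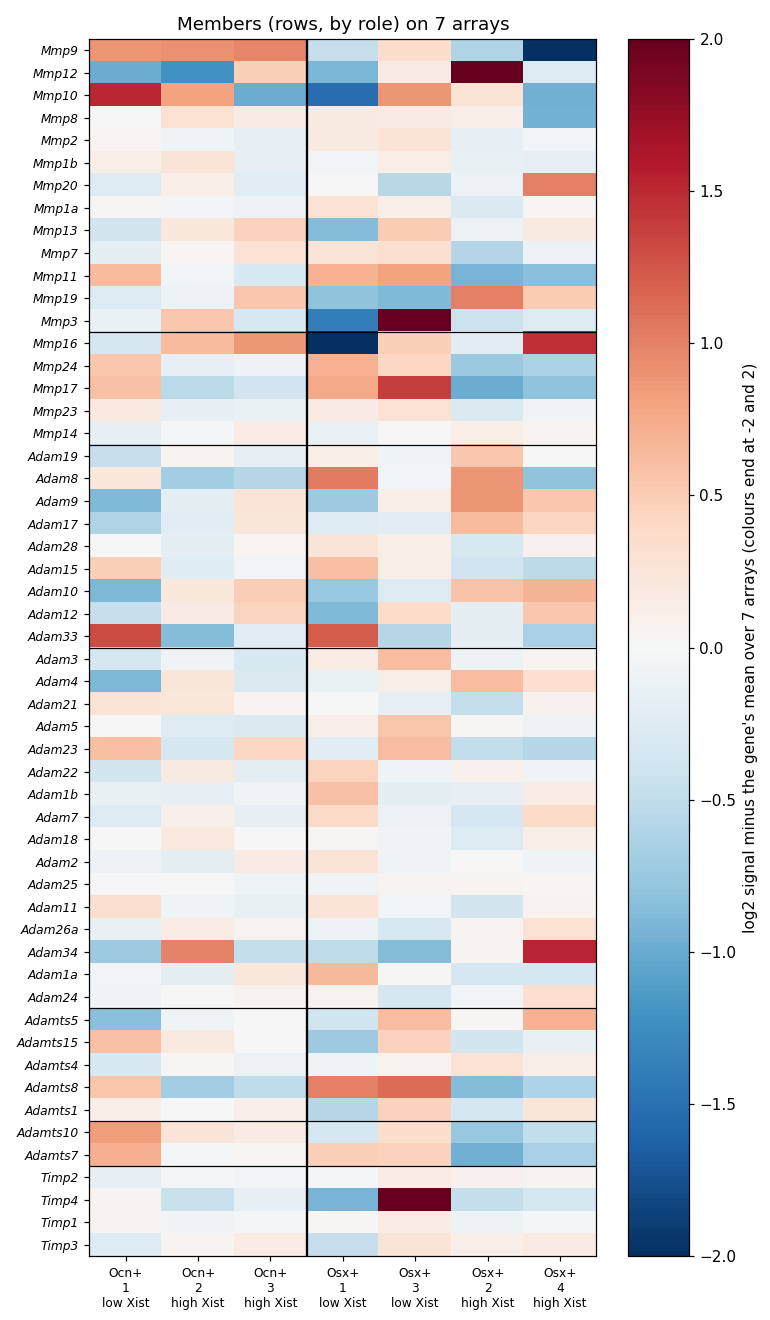
Log2 signal of each of the 54 genes (rows, by role) minus its mean over the 7 arrays (colour, red above and blue below), with Ocn+ arrays in the 3 columns on the left and Osx+ arrays in the 4 on the right, low-Xist arrays first in each. Mmp9 is above its mean in all 3 Ocn+ columns, while Mmp11, Mmp17 and Adamts8 are above theirs in the 3 low-Xist columns.

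Probe sets of the same gene did not always move alike between the Xist classes. Of the 54 genes 19 had several probe sets, with 29 further ones beside those used, of which 17 had the same sign of difference between Ocn+ and Osx+ as the one used. On the low-Xist arrays 12 of the 29 lay below every high-Xist array (41.4%) and 5 lay above (17.2%), against 20.5% and 14.9% of the 7987 further probe sets of all genes. Many of the 29 share a gene and are not independent, and this difference in share was not tested. A further Adam10 probe set was at 6.56 to 7.21 on the low-Xist and 9.47 to 10.17 on the high-Xist arrays, a wider gap than for the one used. For Timp2, 4 of the 5 further probe sets were lower and 1 was higher on every low-Xist array, although the one used overlapped. For Timp3 all 3 further probe sets were lower on every low-Xist array. The Ocn+ minus Osx+ difference of Timp2 ran from -0.18 to 0.37 over its 6 probe sets and that of Timp3 from -0.04 to 0.33 over its 4, so their direction depends on the probe set.

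**Figure D5:**
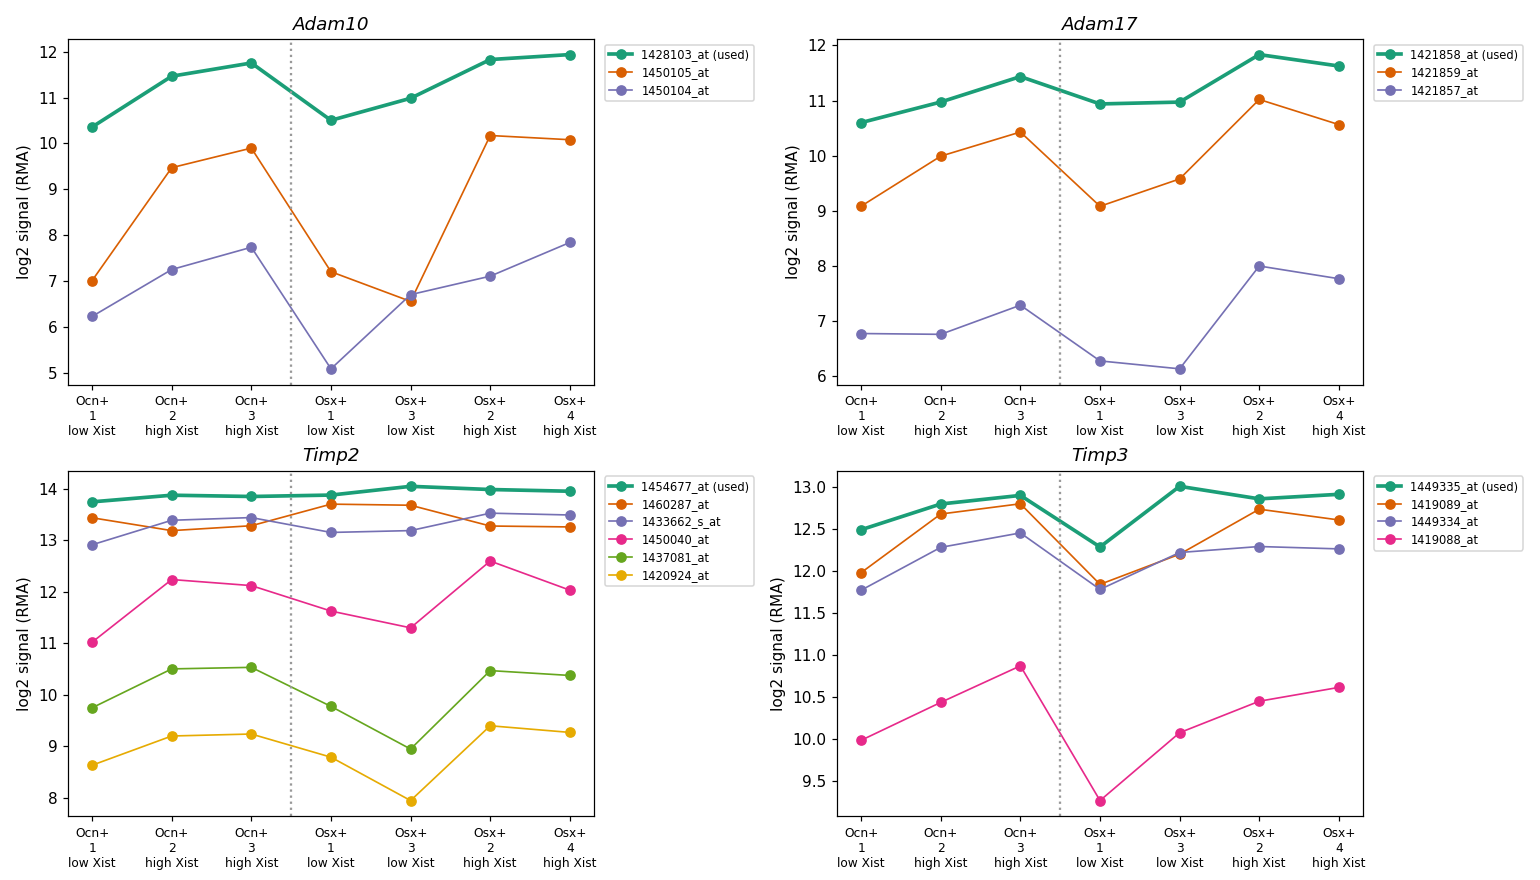
Log2 signal (vertical axes) of every probe set of Adam10, Adam17, Timp2 and Timp3 on the 3 Ocn+ and 4 Osx+ arrays (horizontal axes, dotted line between the groups, low-Xist arrays first in each), with the probe set used drawn thick. One Adam10 probe set falls to 6.56 to 7.21 on the 3 low-Xist arrays, against 9.47 to 10.17 on the other 4.

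Of 30 measured genes that regulate these proteases, 2 had an unadjusted p under 0.05 (6.67%, against 5.31% of all genes) and 0 passed the adjusted threshold. The share is near that of all genes, and both stood higher in Ocn+ cells. Tspan15 and Tspan14 encode tetraspanins that escort Adam10 to the cell surface and steer which substrates it cuts. The other tetraspanins on the list did not share a direction. Tspan5, Tspan17, Tspan10 and Tspan33 differed by 0.33, 0.40, -0.07 and -0.24, with overlapping groups. Tspan15 was at 8.24, 8.30 and 8.24 in Ocn+ cells, against 5.40, 5.95, 7.45 and 5.58 in Osx+ cells, a 4.49-fold brighter signal with no overlap. Its difference was 2.17 (SE 0.48, unadjusted p = 0.00256, limma adjusted p = 0.689), 2.51 within the high-Xist and 1.82 within the low-Xist arrays. It passed without Osx+ replicate 3 (difference 2.62, limma adjusted p = 0.0390) and with array weights (2.44, limma adjusted p = 0.0263). Those weights were highest for Ocn+ replicate 2 (6.02) and lowest for the low-Xist arrays (down to 0.24). Tspan14 was at 10.98, 10.80 and 10.65 in Ocn+ cells, against 10.60, 9.97, 10.42 and 10.25 in Osx+ cells, with a difference of 0.50 (SE 0.20, limma adjusted p = 0.935), 0.62 within the high-Xist and 0.48 within the low-Xist arrays. The means of the endothelial and of the osteoclast markers were also highest on the Ocn+ arrays. Within the Osx+ group they were highest in replicate 3 (9.24 and 9.99), where Tspan15 was highest. The other Osx+ arrays did not share this order. Replicate 1 had the lowest Tspan15 signal (5.40), with means (8.06 and 9.13) above those of replicates 2 and 4. The part of these cells was not tested. Of the 18 substrate genes, among them collagens and proteoglycans, 1 had an unadjusted p under 0.05, which is 5.56% and again near the 5.31% of all genes. Acan, the aggrecan cut by Adamts4 and Adamts5, was at 13.14, 13.46 and 12.91 in Ocn+ cells, against 14.01, 14.28, 13.51 and 13.69 in Osx+ cells, a difference of -0.70 (SE 0.24, limma adjusted p = 0.888) that did not pass. It was -0.80 within the high-Xist and -0.62 within the low-Xist arrays. Acan is also on the list of 10 cartilage markers, of which 8 were lower in Ocn+ cells. The mean of that list was 11.05, 11.39 and 9.85 in Ocn+ cells, against 11.86, 12.76, 10.53 and 10.95 in Osx+ cells. Within each group this was the order of Acan, which is itself part of the mean. The part of cartilage cells was not tested.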

How the data were processed

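Total RNA of sorted cells was amplified with the NuGEN Ovation V2 method and labelled with biotin, per the labels' protocols. The deposited log2 values were made by the authors with RMA (background correction, quantile normalization, probe set summary), per the submitters' processing notes; the software version is not given in the sources used here. Array medians lay between 8.25 and 8.35. An array has no read depth, and the number of arrays, 3 against 4, limits precision.

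Of 22690 probe sets 64 were controls, and 20380 had 1 symbol, 691 several and 1555 none in the platform annotation. One probe set per gene, that of highest mean, gave 12393 genes. Groups came from sample titles. Ocn+ minus Osx+ was fitted on all genes with limma 3.58.1 in R 4.3.3 (lmFit, eBayes, without a block). Its 2-sided p-values were adjusted by Benjamini and Hochberg's method across the 12393 genes, and calls used 0.05. The fit was tested on simulated data. A fold is the brighter group mean over the dimmer, as a power of 2 of the log2 difference. Intervals are 95% and not adjusted.

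Genes given by array are those whose groups do not overlap, the one of highest mean and of smallest p in each role class, all TIMPs, regulators and substrates with an unadjusted p under 0.05, and genes chosen after their values were seen. The genes and lists were chosen with earlier results of these data known. The Xist classes (log2 signal under or over 8) were defined from these data. Alternatives were the replicate block, each array left out, a filter on dim genes, median centring, quantile normalization, a trended robust prior, array weights, other probe set choices, a threshold of 0.1 and the Xist class. Fitting all probe sets was added after seeing the data.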

Additional observations from a re-analysis of the deposited data

Results flagged for a closer look

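The Mmp8 signal of Osx+ replicate 4, at 4.90, stood far below those of the other 3 Osx+ arrays, the nearest being 5.98. The gap made up 0.951 of the group's range, above Dixon's limit at the 95% level for 4 samples. Chance flags about 1 in 20 groups, and 38 genes were screened in this way, so 1 such value is not beyond what chance gives. The same array had the lowest neutrophil marker mean (7.63) and the lowest Mmp9 signal (11.01).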

How the results depend on the processing

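The count of 0 of 54 genes past the adjusted threshold held under every alternative run, a threshold of 0.1 and the fit of all probe sets included. At an unadjusted p under 0.05 limma gave 2 of 54 and 658 of all genes. Without dim genes the counts were 1 of these genes and 512 of all, with arrays centred on the median 1 and 617, with the probe set of largest variance 1 and 598, with array weights 6 and 2200, and with the Xist class as a term 6 and 1988. Leaving out single arrays gave 1 to 3 and 393 to 976. Past the adjusted threshold were 97 genes with array weights and 0 to 3 with single arrays left out. The cause was not tested. The Mmp9 difference stayed above 0 in all settings, at 0.93 to 2.36, with a smallest limma adjusted p of 0.0581 under array weights. Leaving out single arrays gave 1.16 (without Osx+ replicate 4) to 1.96 (without Osx+ replicate 3) for Mmp9 and 0.53 to 0.96 for Adamts10.

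Sign changes were followed over all settings for only part of the genes. The lists below, that of the replicate block included, cover these genes unless stated. Among them, the differences that changed sign were not past the threshold, and ranged in size up to the 0.68 of Mmp16. With array weights the sign was reversed for Mmp16 (-0.0041), Adam12 (-0.046), Mmp17 (0.11), Mmp19 (-0.39), Adamts1 (-0.015) and Adam33 (-0.20). With the Xist class as a term the sign was reversed for Mmp23 (0.0074), Adam12 (-0.0055), Mmp17 (0.065) and Mmp19 (-0.098). Among the genes not followed, it was reversed there for Adam26a (-0.013) and Adam1a (0.051). Within the high-Xist arrays the sign was reversed for Mmp23 (0.041), Timp4 (0.11), Timp1 (0.016), Mmp17 (0.43), Mmp19 (-0.54), Adamts8 (0.14) and Adam33 (-0.13). Among the genes not followed, it was reversed there for Mmp1a (0.036), Adam28 (0.052), Adam2 (0.038), Adam26a (-0.060) and Adam1a (0.35). With the probe set of largest variance the sign was reversed for Adam19 (0.034), Timp2 (0.37), Timp3 (0.33), Mmp14 (0.092) and Adam10 (0.29). Within the low-Xist arrays the sign was reversed for Adam12 (-0.20), Mmp13 (-0.20), Mmp3 (-0.45), Mmp8 (-0.17), Mmp11 (-0.12) and Mmp24 (-0.015). Among the genes not followed, it was reversed there for Mmp7 (-0.47), Mmp20 (0.0095) and Adam24 (0.057). With the mean of all probe sets the sign was reversed for Timp2 (0.0059), Timp3 (0.12), Mmp14 (0.030), Adam10 (0.19) and Mmp24 (-0.072). With single arrays left out, the differences that reversed ran over these ranges: Mmp16 -0.18 to 1.27, Mmp23 -0.17 to 0.033, Adam12 -0.19 to 0.34, Timp4 -0.69 to 0.40, Timp1 -0.067 to 0.019, Timp3 -0.20 to 0.082, Mmp13 -0.098 to 0.40, Mmp14 -0.11 to 0.037, Mmp3 -0.40 to 0.73, Mmp8 -0.0035 to 0.37, Mmp17 -0.56 to 0.23, Mmp19 -0.18 to 0.45, Adam10 -0.40 to 0.30, Adam15 -0.10 to 0.32, Adamts1 -0.043 to 0.30, Mmp11 -0.13 to 0.45, Mmp24 -0.067 to 0.41 and Adam33 -0.50 to 0.59.

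The deviations of same-numbered Ocn+ and Osx+ samples from their group means correlated at 0.63, 0.45 and -0.30 for numbers 1 to 3. Numbers 1 and 2 join arrays of the same Xist class, and number 3 joins arrays of different classes. These correlations therefore cannot tell whether the numbers pair the samples. Osx+ replicate 4 has no Ocn+ sample of its number, so with the replicate block it does not enter the difference. The differences are then those found without that array, such as 1.16 for Mmp9 and -0.97 for Adam8. With the replicate block 3 of the 54 (5.56%) had an unadjusted p under 0.05 (Adam8, Mmp16 and Mmp9), beside 828 of all genes, the Mmp9 difference was 1.16 (limma adjusted p = 0.527), and the sign was reversed for Timp3 (0.012), Mmp3 (-0.036), Mmp8 (-0.0035), Adam10 (0.087), Adam15 (-0.056), Mmp11 (-0.10), Mmp24 (-0.028) and Adam33 (-0.082).

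With 3 and 4 arrays, wide intervals leave differences of 2-fold unsettled for 26 of the 54 genes, and low signals cannot be told from background.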
